A study of Mus musculus with 170 samples.

Results

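Lungs of mice given smoke from flaming red oak were compared with lungs of mice given smoke from smoldering red oak, 4 h after a single dose. The comparison holds the 12 libraries that the labels assign to these treatments, tissue and time, out of 170 libraries in the series, with 6 red oak flame lungs (animals 37 to 42) and 6 red oak smolder lungs (animals 1 to 6). All mice were female CD-1, an outbred strain, and none carried a genetic change. Each flame or smolder mouse received smoke condensate at 2 mg/mL particulate matter in 50 µL saline, placed at the back of the throat and breathed in (oropharyngeal aspiration), so the dose was matched by particle mass. The 6 saline lungs of the same time are given beside the values as background and entered neither the 12-library nor the 48-library fit described below. Each title is a separate animal number, and no label gives the order of exposure or collection, so burning phase and the block of animal numbers cannot be told apart.

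Flaming and smoldering fires leave different chemistry on their particles. Metals and polycyclic aromatic hydrocarbons act on lung cells through separate sensors. The metal-responsive factor MTF1 switches on metallothioneins, small zinc-binding proteins. The aryl hydrocarbon receptor switches on Cyp1a1, an enzyme that oxidises polycyclic aromatic compounds, and Nrf2 switches on antioxidant enzymes. Growth and injury signals switch on immediate early genes within minutes to hours through serum response factor, and NF-kB drives chemokine genes that recruit neutrophils and monocytes.

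The authors' counts per library totalled 6186198 to 7251624 in flame lungs and 6308107 to 7397584 in smolder lungs, and 15179 to 15644 genes had a count in flame lungs, against 14581 to 15476 in smolder lungs. Markers of alveolar type 1 and type 2, club, ciliated and endothelial cells had counts in each of the 12 libraries, as the lung label says. Of the thymus markers, Ptcra was at 0 in all 12 libraries, Rag1 in 10 and Dntt in 5, and Dntt reached 0.93 CPM. Smolder replicates 1 and 4 stood apart on the first principal component (35.1% of the variance), at -61.8 and -66.3, and had the fewest detected genes (14727 and 14581). The summed ciliated cell list was 1005 to 1387 CPM in flame lungs and 1032 to 2411 CPM in smolder lungs, where CPM is a gene's count scaled to a common library size. Both of the highest ciliated sums were in those libraries. For the genes that passed the test, the plot of the 40 called genes gives each value with and without them.

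The marker gene of the comparison was Mt2, metallothionein 2. Its level was 145, 226, 149, 151, 168 and 185 CPM in the flame lungs, against 80.6, 70, 79, 140, 98.6 and 54.8 CPM in the smolder lungs. Saline lungs lay at 25.2 to 99.2 CPM. All 6 flame lungs were above all 6 smolder lungs, and of all genes tested 0.468% were placed this way. The log2 difference of flame minus smolder was 0.94 ± 0.22 (SE, n = 6 each), and its adjusted p was 0.333 in the edgeR quasi-likelihood test with Benjamini-Hochberg adjustment, so it did not pass. DESeq2 gave Mt2 an adjusted p of 0.0138, which did. Over 21 alternatives to that fit the log2 difference of Mt2 was 0.83 to 1.18. Without smolder replicates 1 and 4 it was 1.18, with an adjusted p of 0.138. Of the Mt2 probes, 1 gave 7028 counts in flame and 3454 in smolder libraries, and the other 16 and 2.

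The promoters of both metallothionein genes are shown because MTF1 acts through short metal response elements. Each sequence runs from 250 bases before to 50 bases after the gene's start (RefSeq, build GRCm38.p6, plus strand), with capitals at each match to TGCACNC or TGCGCNC on either strand. Mt2 lies at chr8:94172368-94172667 and has 4 matches, and Mt1 lies at chr8:94178839-94179138 and has 3.
Mt2: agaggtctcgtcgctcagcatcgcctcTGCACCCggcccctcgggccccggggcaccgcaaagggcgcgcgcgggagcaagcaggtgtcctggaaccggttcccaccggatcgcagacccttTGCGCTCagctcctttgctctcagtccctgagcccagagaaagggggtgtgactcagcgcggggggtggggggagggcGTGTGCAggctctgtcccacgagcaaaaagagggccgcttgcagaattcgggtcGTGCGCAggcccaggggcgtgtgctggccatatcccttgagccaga
Mt1: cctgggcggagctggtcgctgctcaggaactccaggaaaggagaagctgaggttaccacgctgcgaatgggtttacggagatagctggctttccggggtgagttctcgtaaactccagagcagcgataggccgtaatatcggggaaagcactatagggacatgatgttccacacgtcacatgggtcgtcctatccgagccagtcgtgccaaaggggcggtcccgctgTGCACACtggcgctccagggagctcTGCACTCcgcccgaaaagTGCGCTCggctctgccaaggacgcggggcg
At least 3 matches were present in 1.97% of the 32851 promoters of this length, and at least 4 in 0.517%. The matches describe letters and not bound sites.

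Mt1, the neighbouring metallothionein gene, did not follow Mt2. It had 6.80 to 15.9 CPM in flame lungs and 1.40 to 18.0 CPM in smolder lungs, with overlapping groups, and its log2 difference of 0.11 ± 0.42 (edgeR adjusted p = 0.938) changed sign without smolder replicate 5 or flame replicate 1 or 2. Across the 12 libraries Mt1 and Mt2 had a Pearson correlation of 0.21 in log2 CPM, given as a description. Slc30a1, the zinc exporter gene and an MTF1 target, had a log2 difference of 0.20 ± 0.27. None of the 6 tested members of the metallothionein and zinc list passed the edgeR test, and their median log2 difference was 0.12, beside -0.05 over all 12613 genes tested. The 5 genes most like Mt2 over the 12 libraries were Egln3 (r = 0.92), Tomm6, Rcc2, Nup62 and Zfp703 (0.91 each). None of them passed the test, and Zfp703 had the smallest p of these, with 11.2 ± 2.11 CPM in flame and 5.32 ± 1.36 CPM in smolder lungs.

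**Figure D1:**
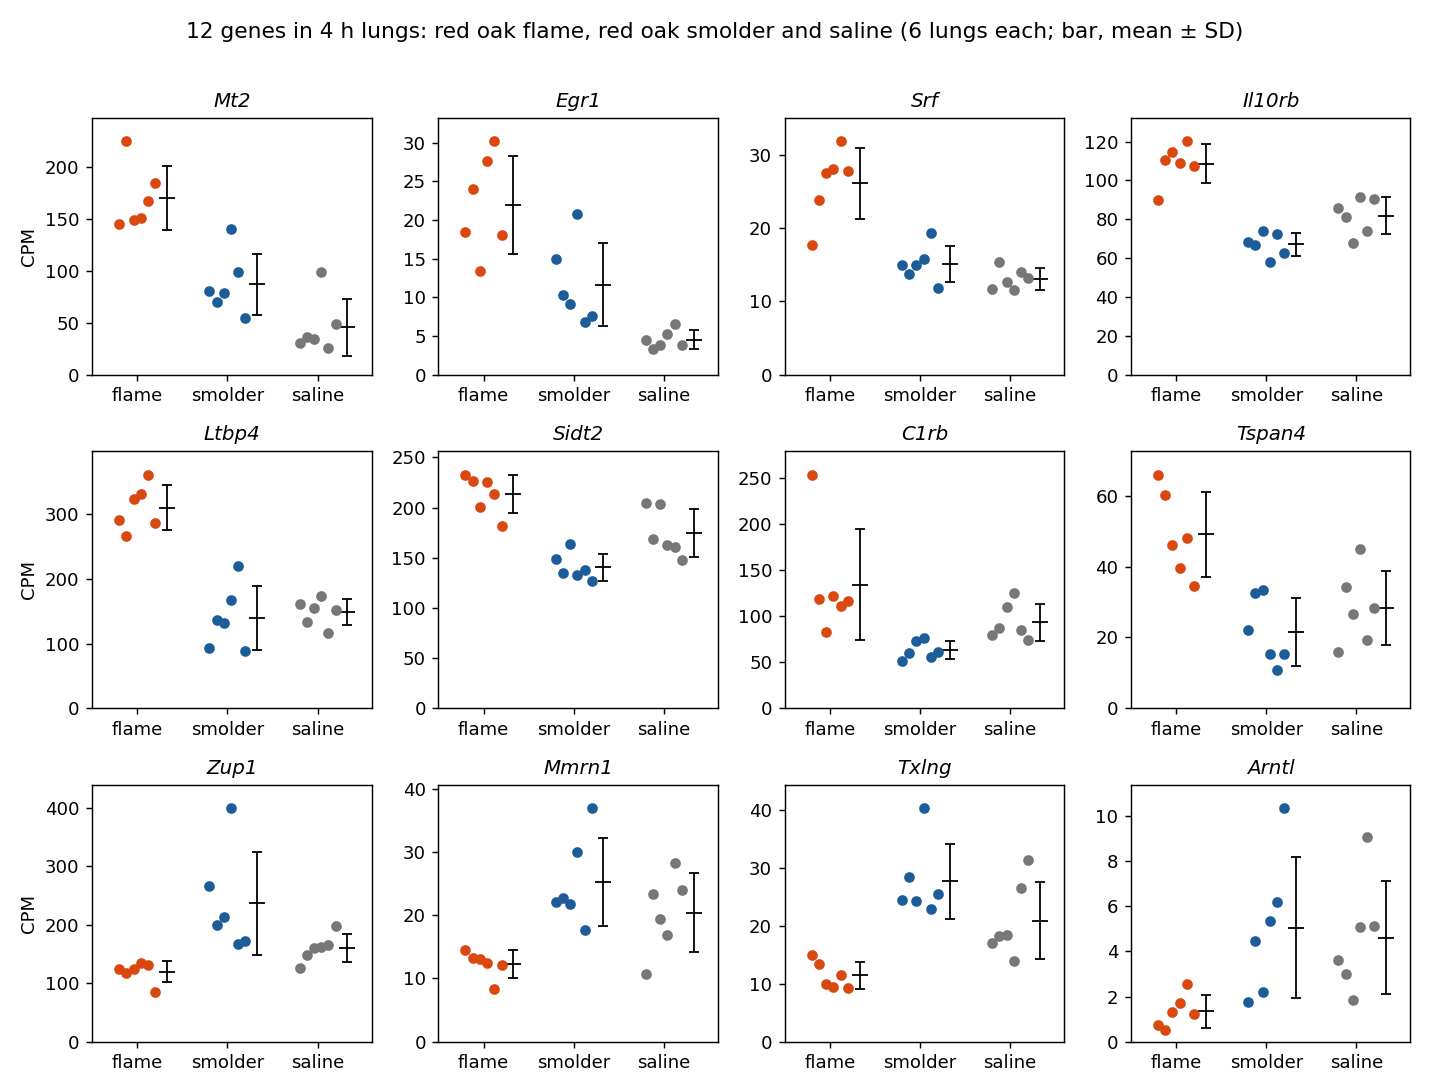
Level of 12 genes in CPM (linear axis from 0) in each red oak flame, red oak smolder and saline lung at 4 h, with 6 lungs a group and the mean ± SD beside the points. Mt2 lay at 145 to 226 CPM in flame lungs and 54.8 to 140 CPM in smolder lungs, while Txlng, Mmrn1 and Zup1 were lower in every flame lung than in any smolder lung.

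Over all genes, the question was which transcripts separate lungs given the same particle mass from the 2 burning phases. In the fit of the 12 libraries alone, 0 of 12613 genes passed an adjusted p under 0.05 (0%, edgeR), 1343 had an unadjusted p under 0.05 (10.6%, 4.88% higher and 5.77% lower in flame lungs), and the smallest adjusted p was 0.152, for Txlng. DESeq2 called 90 genes in the same libraries (0.714%), 58 higher (0.46%) and 32 lower (0.254%) in flame lungs. limma-voom called 0. The flame and smolder groups did not overlap for 0.88% of genes, with flame above smolder in 59 and below in 52 (0.412%).

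The fit that pools the spread over 48 lungs of red oak, peat, pine and eucalyptus called 40 genes between red oak flame and red oak smolder (0.293% of 13660), with 31 higher (0.227%) and 9 lower (0.0659%) in flame lungs, and 1681 genes had an unadjusted p under 0.05 (12.3%). The count moved with single animals. It was 4, 26, 66, 7, 67 and 20 without smolder replicates 1 to 6 in turn, and 40, 6, 19, 20, 10 and 23 without flame replicates 1 to 6. Without smolder replicates 1 and 4 together it was 0, with 1325 genes at an unadjusted p under 0.05 and a smallest adjusted p of 0.0741, so each of the 40 calls was lost there. Sidt2, C1rb and Tspan4 were called in all 12 fits that left out 1 red oak library, and Lrp10 and Syde2 in none. DESeq2 in the 12 libraries called 25 of the 40 genes (62.5% of the 40 and 27.8% of its own 90). "Rose" and "fell" refer to the 48-library fit for the 4 h lungs and to the heart fit for hearts.

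Sidt2, which encodes a lysosomal membrane protein of an RNA transporter family, rose in flame lungs. Its lowest, median and highest levels were 182, 219 and 233 CPM in flame lungs, against 126.5, 136.2 and 164 CPM in smolder lungs. The groups did not overlap, and the saline lungs (148 to 205 CPM) overlapped both. The log2 difference was 0.60 ± 0.10 (edgeR adjusted p = 0.0076), and it was 0.61 without smolder replicates 1 and 4. Tspan4, a tetraspanin gene of cell membranes and of migrasomes, had 34.7, 47.2 and 66.1 CPM in flame lungs, against 10.7, 18.7 and 33.5 CPM in smolder lungs. Its log2 difference was 1.19 ± 0.22 (edgeR adjusted p = 0.0128), again with no overlap. C1rb encodes a mouse form of the complement protease C1r, and its near-identical paralog makes the split of its reads uncertain. C1rb had 82.5, 117.4 and 254 CPM in flame lungs and 51.4, 60.3 and 76.1 CPM in smolder lungs, and its log2 difference of 1.09 ± 0.19 was 0.80 without flame replicate 1, the highest flame lung.

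Ltbp4, Il10rb, Cish and Pdgfb were among the 31 genes that rose. Ltbp4, which binds latent TGF-beta and is needed for lung elastic fibres, had 267, 307 and 362 CPM in flame lungs, against 88, 134.4 and 219 CPM in smolder lungs. Every flame lung was also above all 6 saline lungs (116.98 to 174 CPM), while smolder and saline overlapped, and the log2 difference of flame minus smolder was 1.15 ± 0.22 (edgeR adjusted p = 0.0148). Il10rb, the shared second chain of the IL-10 receptor family, had 90.1, 110 and 120 CPM in flame lungs and 58.2, 67.4 and 74.2 CPM in smolder lungs, a log2 difference of 0.70 ± 0.13. Cish, a feedback inhibitor of STAT5 signalling, had 18.4 to 27.9 CPM in flame lungs and 7.25 to 16.7 CPM in smolder lungs, a log2 difference of 0.95 ± 0.19. Neither Il10rb nor Cish overlapped between flame and smolder. Pdgfb, a growth factor for pericytes and fibroblasts, rose by 1.23 ± 0.29 on the log2 scale, yet flame replicate 1 (5.14 CPM) lay inside the smolder range of 3.78 to 11.6 CPM. The call of Pdgfb held in 4 of the 12 fits that left out 1 red oak library.

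Other genes that rose included Furin, the protease that activates TGF-beta and many other precursors (log2 difference 0.51 ± 0.12), Ptprf, a receptor tyrosine phosphatase of epithelium (0.58 ± 0.12), and Gata6, a transcription factor of lung epithelium (0.51 ± 0.12). Furin, Ptprf and Gata6 were called in 3, 4 and 1 of the 12 fits that left out 1 red oak library. Chst2, a sulfotransferase of glycan chains, had the larger log2 difference of 1.62 ± 0.35, with 8.52 to 25.5 CPM in flame lungs and 2.21 to 9.30 CPM in smolder lungs. Eif4ebp2, a repressor of cap-dependent translation, rose by 1.16 ± 0.24, and Stx11, a membrane fusion protein of immune cells and platelets, by 1.06 ± 0.23. Stx11 had 56.7 to 110 CPM in flame lungs and 26.3 to 52.1 CPM in smolder lungs, so the groups did not overlap. C1qtnf2, a secreted C1q-like protein gene, had one of the 6 smallest p of the higher genes in the 12-library fit but was not called in the 48-library fit (log2 difference 1.25 ± 0.39, edgeR adjusted p = 0.131). Its groups did not overlap, with 18.7 to 39.6 CPM in flame and 5.99 to 17.4 CPM in smolder lungs.

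Bnc2, Rspo1 and C4b also passed the test, and flame replicate 1 was the highest flame lung for each. Bnc2, a zinc finger gene of mesenchymal and mesothelial cells, had 185 CPM in that lung and 27.8 to 60 CPM in the other flame lungs, against 19.4 to 31.4 CPM in smolder lungs. Its log2 difference of 1.35 ± 0.28 became 0.71 without flame replicate 1 (edgeR adjusted p = 0.103). Rspo1, a secreted enhancer of Wnt signalling, had a log2 difference of 1.94 ± 0.43 with that lung and 1.16 without it (edgeR adjusted p = 0.146). C4b, a complement component with a near-identical copy in the mouse genome, had 1.37 ± 0.33 with it and 0.62 without it (edgeR adjusted p = 0.250). Flame replicate 1 was the highest flame lung for 10 of the 31 genes that rose, and 22 of the 31 were called without it. The same lung was far above the others for genes of mesothelial cells, which line the lung surface. Over 8 such genes, picked after their values were seen, it had a summed 2482 CPM, against 379 to 687 CPM in the other flame lungs, 365 to 529 CPM in smolder lungs and 383 to 923 CPM in saline lungs. All 8, Rspo1 among them, had log2 differences above 0 with that lung included. The list was picked after its values were seen, so this shared sign is a description and not a test. Except for Rspo1, the differences of its members without that lung were not taken. The part of these cells in the results for Bnc2, Rspo1, C4b and C1rb was not tested beyond the values without that lung.

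Among the 9 genes that fell, Txlng, the taxilin gamma gene, had 9.33, 10.8 and 15 CPM in flame lungs, against 22.9, 25.1 and 40.4 CPM in smolder lungs. Its log2 difference was -1.28 ± 0.29 (edgeR adjusted p = 0.0329). Zup1, a deubiquitinase for a chain type used in DNA repair signalling, had 84.7 to 135.02 CPM in flame lungs and 167 to 399 CPM in smolder lungs. Its log2 difference of -0.99 ± 0.20 was -0.65 without smolder replicates 1 and 4, which held the highest levels (267 and 399 CPM). Armc2 and Rabl2, both needed for cilia or sperm flagella in the mouse, had log2 differences of -1.39 ± 0.32 and -1.31 ± 0.30, and these were -0.57 and -0.70 without the same libraries. Eif2s1, the alpha subunit of translation factor eIF2, fell by 0.56 ± 0.13, and the nuclear RNA-binding proteins Ilf2 and Pabpn1 fell by 0.51 ± 0.12 and 0.74 ± 0.18. Liph, a lipase that makes lysophosphatidic acid, fell by 0.68 ± 0.15. Without smolder replicates 1 and 4 the log2 differences of Pabpn1, Liph and Ilf2 were -0.43, -0.42 and -0.35 (edgeR adjusted p = 0.41, 0.34 and 0.31).

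Mmrn1, which encodes multimerin 1 of platelet granules and endothelium, fell in flame lungs. It had 8.26, 12.8 and 14.5 CPM in flame lungs and 17.7, 22.5 and 36.9 CPM in smolder lungs, and saline lungs ranged across both (10.7 to 28.2 CPM). The log2 difference was -1.03 ± 0.22 (edgeR adjusted p = 0.0285), and it was -1.0 without smolder replicates 1 and 4. Cd226, an adhesion receptor of platelets and lymphocytes, had 8.13 to 12.9 CPM in flame lungs and 17.5 to 24.4 CPM in smolder lungs, with no overlap. P2ry12, the platelet ADP receptor, had 6.02 to 10.1 CPM in flame lungs and 11.5 to 26.8 CPM in smolder lungs, again with no overlap. Over 12 platelet genes picked after their values were seen, Mmrn1 and Cd226 among them, the 9 tested all had log2 differences below 0. Their median was -0.90, and only Mmrn1 passed the edgeR test in the 48-library fit. Flame lay below smolder without overlap in 3 of the 9 (Mmrn1, Cd226 and P2ry12), where 0.412% of all genes did. Treml1, Gp9 and Gp1ba were too low to test. Their median levels in flame and smolder lungs were 0.56 and 0.24, 0.67 and 0.67, and 0.07 and 0.31 CPM. The summed level of all 12 was 116.4 to 217 CPM in flame lungs, 213 to 326 CPM in smolder lungs and 177 to 400 CPM in saline lungs. Most of this sum was Clec1b, which alone had 66.9 to 156 CPM in flame lungs and 130 to 213 CPM in smolder lungs. Cul2, a ubiquitin ligase scaffold, and Pla2g16, a phospholipase, were also among the 6 lower genes with the smallest p, with log2 differences of -0.74 ± 0.17 and -0.78 ± 0.18 in the 12-library fit, and neither was called in edgeR. In bulk lung, fewer cells of a type and less RNA per cell cannot be told apart.

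**Figure D2:**
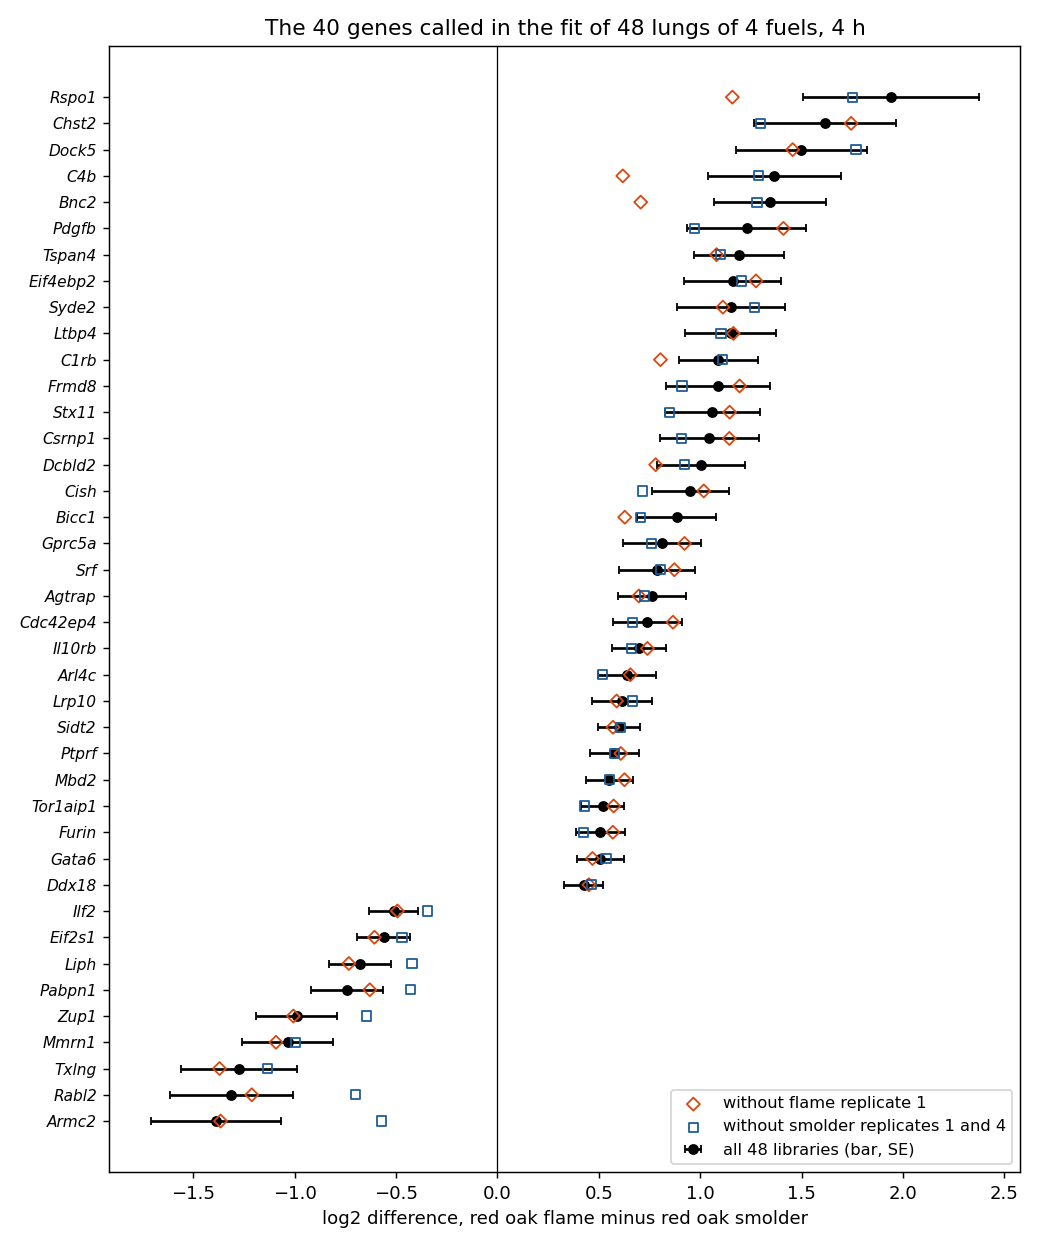
Log2 difference of red oak flame minus red oak smolder at 4 h for the 40 genes called in the 48-library fit (filled points, bar SE), with the same value without flame replicate 1 (diamonds) and without smolder replicates 1 and 4 (squares). Rspo1, C4b and Bnc2 moved most without flame replicate 1, to 1.16, 0.62 and 0.71, and Armc2 and Rabl2 moved to -0.57 and -0.70 without the 2 smolder lungs.

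Among immediate early genes, Srf, which encodes serum response factor itself, was the only member called in the 48-library fit (1 of 22 tested, where 0.293% of all genes were called). Srf had 17.6, 27.7 and 31.9 CPM in flame lungs, against 11.8, 15 and 19.4 CPM in smolder lungs. Saline lungs lay at 11.5 to 15.4 CPM, below every flame lung. The log2 difference of Srf was 0.79 ± 0.19 (edgeR adjusted p = 0.0467), and it was 0.80 without smolder replicates 1 and 4 (adjusted p = 0.19). Srf was called in 2 of the 12 fits that left out 1 red oak library. Csrnp1, a nuclear protein induced by growth factors and cytokines, also rose, by 1.05 ± 0.24, though it was not on the list. Csrnp1 too was called in 2 of those 12 fits. Egr1, an early zinc finger factor and serum response factor target, had 13.4, 21.2 and 30.2 CPM in flame lungs, 6.82, 9.70 and 20.8 CPM in smolder lungs and 3.32, 4.12 and 6.52 CPM in saline lungs. The groups of flame and smolder overlapped, and the log2 difference of 0.89 ± 0.30 did not pass (edgeR adjusted p = 0.384). Fos had 55.4 ± 8.39 CPM in flame lungs and 58.2 ± 25 CPM in smolder lungs (SD, n = 6 each), and its sign changed without smolder replicate 1 or 4, and Atf3, a stress-induced factor, had a log2 difference of 0.40 ± 0.26. In the 12-library fit, 16 of the 20 tested immediate early genes had differences above 0, beside 43.6% of all genes, and 4 had an unadjusted p under 0.05, all higher in flame lungs (background 4.88%).

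No member of the inflammatory lists passed the edgeR test in the 12-library or the 48-library fit. Of 14 tested chemokine and cytokine genes, 11 had log2 differences above 0 and the median was 0.59. Cxcl2, a neutrophil chemoattractant, had 6.32, 18.7 and 71 CPM in flame lungs and 3.57, 8.15 and 20.3 CPM in smolder lungs. Its spread within flame lungs was wide, and its log2 difference was 1.36 ± 0.60 in the 12-library fit. The separate 48-library fit gave it an edgeR adjusted p of 0.421. Cxcl1, of the same family, had a log2 difference of 0.45 ± 0.54, and it was -0.13 when detected gene numbers entered the model. Of 16 NF-kB feedback genes, 15 lay above 0, with a median of 0.19, and Nfkbie, an inhibitor of NF-kB, had 18.5 CPM in flame and 8.83 CPM in smolder lungs on average. The neutrophil list had a median of 0.20 with 8 of 11 above 0, and its summed level was 287 to 378 CPM in flame lungs and 243 to 365 CPM in smolder lungs.

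No aryl hydrocarbon receptor or Nrf2 gene passed the edgeR test between flame and smolder lungs, and 5 of the 10 tested receptor genes had differences above 0. Cyp1a1 had 2.95, 7.11 and 16.3 CPM in flame lungs, 4.26, 16.8 and 32.7 CPM in smolder lungs and 4.83, 8.68 and 34.5 CPM in saline lungs. All 3 ranges overlapped, and the log2 difference of flame minus smolder was -0.92 ± 0.48 (edgeR adjusted p = 0.513). Cyp1b1, another receptor target, was at 0.07 ± 0.37. Aldh3a1, an aldehyde dehydrogenase of the same pathway, had 22.9 CPM in flame and 58.4 CPM in smolder lungs on average, a log2 difference of -1.38 ± 0.40 that did not pass. Of 25 Nrf2 genes, 7 had differences above 0 and the median was -0.22. Nqo1, a quinone reductase induced by both pathways, had 20.7 ± 6.75 CPM in flame lungs, 29.5 ± 11.6 CPM in smolder lungs and 11.6 ± 3.23 CPM in saline lungs (SD, n = 6 each), with a log2 difference of -0.53 ± 0.31. Hmox1, heme oxygenase 1, was at 0.07 ± 0.31 and changed sign without smolder replicate 2 or 5. Ftl1, the ferritin light chain, was lowest in p of the Nrf2 list, with 218 CPM in flame and 315 CPM in smolder lungs on average and no call.

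No circadian clock gene passed the edgeR test in the 12-library or the 48-library fit. Of 15 tested, 12 had log2 differences above 0, with a median of 0.31, and at an unadjusted p under 0.05 there were 3 above 0 and 1 below 0. Arntl, the activator of the clock, had 0.54, 1.28 and 2.56 CPM in flame lungs, against 1.75, 4.92 and 10.3 CPM in smolder lungs and 1.83, 4.35 and 9.05 CPM in saline lungs. The log2 difference of Arntl was -1.89 ± 0.47 (edgeR adjusted p = 0.357), and DESeq2 gave it an adjusted p of 0.0261. Dbp, an output gene of the clock that peaks when Arntl is low, had 359, 502 and 669 CPM in flame lungs, against 80.2, 254 and 455 CPM in smolder lungs and 161, 374 and 699 CPM in saline lungs. Its log2 difference was 0.89 ± 0.37. Per1 was at 0.31 ± 0.25. The time of day at collection is not given in the labels, and its part in these values was not tested.

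All 8 mitochondrially encoded transcripts had log2 differences below 0, with a median of -0.99 and 5 at an unadjusted p under 0.05 (background 5.77%), and none passed the adjusted test in either fit. Their summed level was 894 to 1976 CPM in flame lungs and 683 to 3436 CPM in smolder lungs, and the 2 highest were smolder replicates 1 and 4, the libraries that also stood apart in ciliated genes. All 13 ciliated cell genes and all 10 tested cardiac muscle genes lay below 0 as well, with medians of -0.50 and -0.52, and none was called. Ccdc39, a dynein assembly gene of cilia, had 103.03 and 89.2 CPM in smolder replicates 1 and 4, and 18.3 to 33.8 CPM in the other smolder lungs, against 11.7 to 31.3 CPM in flame lungs. Club cell genes had a median of -0.33, and alveolar type 1 and endothelial genes medians of 0.33 each. Cardiac sums were 157 to 1144 CPM in flame lungs and 489 to 1406 CPM in smolder lungs. The part of tissue sampling in these lists was not tested.

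**Figure D3:**
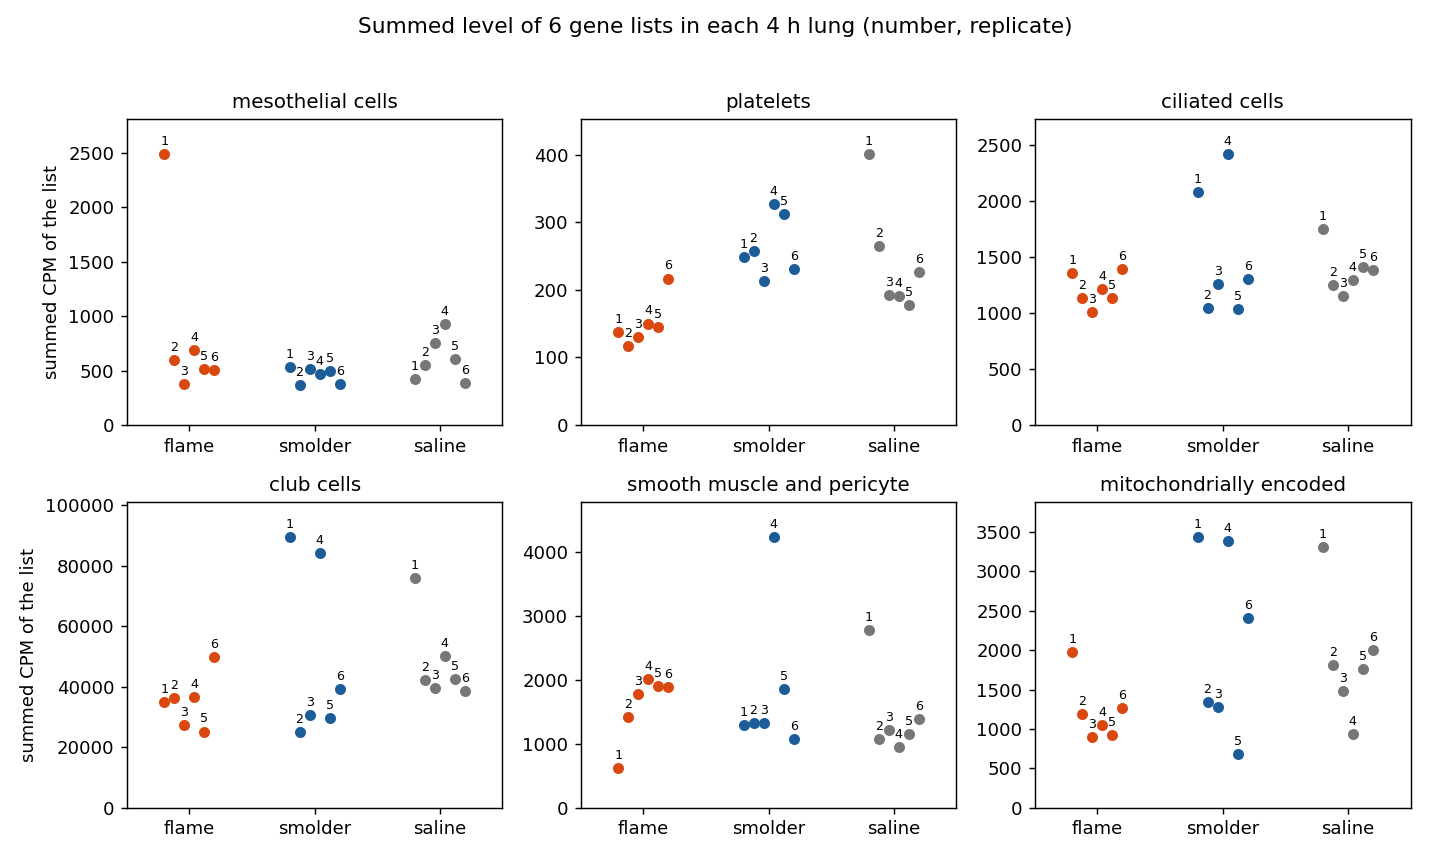
Summed CPM of 6 gene lists in each red oak flame, red oak smolder and saline lung at 4 h, with replicate numbers beside the points and linear axes from 0. Flame replicate 1 had 2482 CPM of mesothelial genes, and smolder replicates 1 and 4 were highest in ciliated, club and mitochondrially encoded genes.

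**Figure D4:**
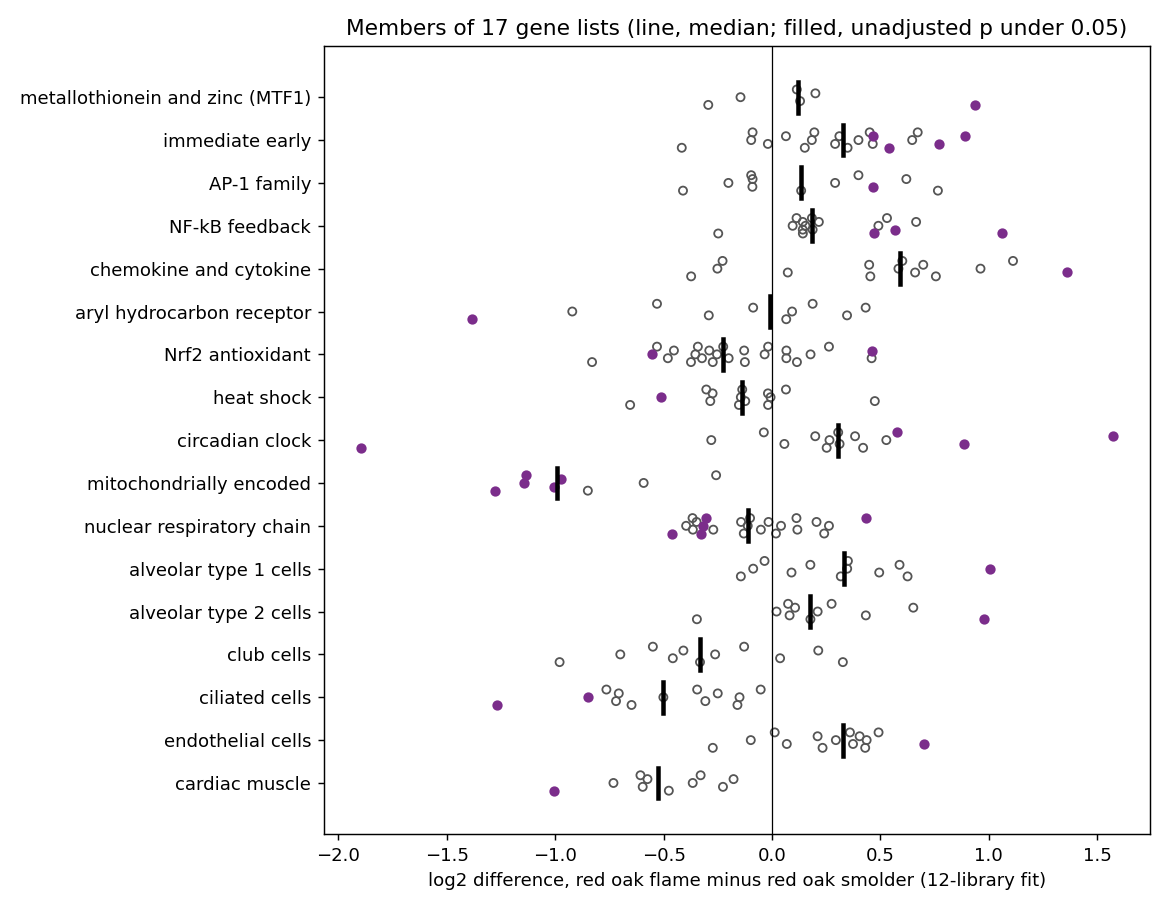
Log2 difference of red oak flame minus red oak smolder at 4 h (12-library fit) for each tested member of 17 gene lists, with the list median as a line and an unadjusted p under 0.05 as filled points. No member passed the adjusted test, and medians ran from -0.99 for mitochondrially encoded transcripts to 0.59 for chemokines and cytokines.

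Mcm3, a subunit of the replicative helicase, and Apln, the endothelial peptide apelin, had flame levels above all smolder levels without passing in edgeR. Of all genes tested, 0.468% were placed this way. Each was the only such member of its list. The cell cycle list of Mcm3 had 8 of 19 genes above 0 and a median log2 difference of -0.03. The endothelial activation list of Apln had 9 of 12 above 0 and a median of 0.18. Mcm3 had 10.9, 13.2 and 19.9 CPM in flame lungs and 3.31, 7.10 and 8.53 CPM in smolder lungs. Apln had 29, 37.5 and 44.4 CPM in flame lungs and 14.2, 24.5 and 25.8 CPM in smolder lungs. Their log2 differences were 1.04 ± 0.24 and 0.77 ± 0.18, and DESeq2 gave adjusted p values of 0.0130 and 0.0138.

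The same flame minus smolder difference was taken for peat, pine and eucalyptus to ask what was particular to red oak. The edgeR contrast of red oak minus the mean of the other 3 fuels called 1 of 13660 genes (0.00732%), Cyp1a1, at -3.33 ± 0.51 (adjusted p = 0.000788), where 697 genes had an unadjusted p under 0.05 (5.1%). Cyp1a1 was the 1 call in every fit that left out a red oak library. Cyp1a1 averaged 8.51 CPM in red oak flame and 16.3 CPM in red oak smolder lungs, and 8.69 CPM in peat flame and 17.2 CPM in peat smolder lungs. Cyp1a1 averaged 84.5 CPM in pine flame and 11.3 CPM in pine smolder lungs, and 578 CPM in eucalyptus flame and 14.2 CPM in eucalyptus smolder lungs. The differences in red oak and peat lay close together (-0.92 ± 0.44 and -0.98 ± 0.43), below those in pine (2.89 ± 0.45) and eucalyptus (5.33 ± 0.49).

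The Cyp1a1 promoter is shown because Cyp1a1 was the only call of that contrast. It lies at chr9:57697363-57697662 (RefSeq, build GRCm38.p6, plus strand), with capitals at the only match to GCGTG, the core of the dioxin response element, on either strand.
Cyp1a1: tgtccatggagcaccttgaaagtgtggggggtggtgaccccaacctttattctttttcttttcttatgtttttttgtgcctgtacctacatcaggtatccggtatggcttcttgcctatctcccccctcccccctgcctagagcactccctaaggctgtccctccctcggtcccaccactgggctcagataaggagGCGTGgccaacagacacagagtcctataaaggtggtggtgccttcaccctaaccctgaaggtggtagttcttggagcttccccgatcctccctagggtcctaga
GCGTG was present in 32.4% of the 32851 promoters of this length.

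The genes next after Cyp1a1 in the fuel contrast did not pass. Aldh3a1 and Nqo1 had contrasts of -2.11 ± 0.48 and -1.32 ± 0.33 (edgeR adjusted p = 0.219 and 0.293), and Mmrn1 and Eif2s1 of -1.04 ± 0.26 and -0.60 ± 0.15. Among genes with the smallest p above 0 were Syde2, Piezo2, Dock5, Bnc2 and Sidt2. Sidt2 had a log2 difference of 0.60 ± 0.10 in red oak, beside 0.10, 0.01 and 0.13 in peat, pine and eucalyptus, and a contrast of 0.52 ± 0.12 (edgeR adjusted p = 0.219). DESeq2 called 5 genes in the same contrast, which were Cyp1a1, Aldh3a1, Dock5, Piezo2 and Sidt2. Mt2 was higher in flame than in smolder lungs by 0.96 ± 0.33 in red oak, 2.29 ± 0.34 in peat, 0.76 ± 0.33 in pine and 0.88 ± 0.33 in eucalyptus, and passed the edgeR test in peat, where 0.198% of genes did. Its contrast of red oak with the other fuels was -0.35 ± 0.37. Arntl was lower in flame lungs of all 4 fuels, at -1.89 ± 0.49 in red oak and -1.16 to -1.35 in the others, and none was called. Of the 40 red oak calls, 29 had the same sign in all 3 other fuels, and the same share over all genes was not taken. In all 4 fuels the flame lungs had higher animal numbers than the smolder lungs. A sign shared between fuels therefore cannot tell burning phase from the block of animal numbers.

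**Figure D5:**
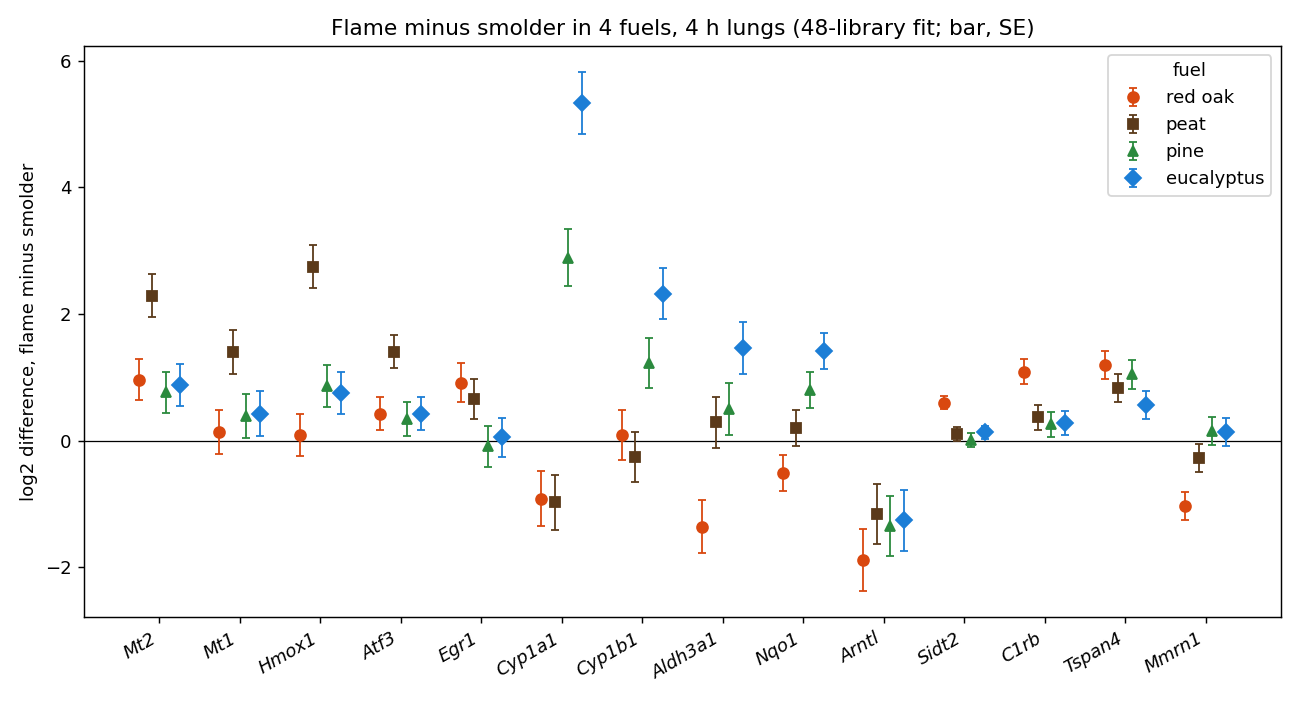
Log2 difference of flame minus smolder (bar, SE) for 14 genes in red oak, peat, pine and eucalyptus lungs at 4 h, from the 48-library fit. Cyp1a1 was at -0.92 in red oak and -0.98 in peat, against 2.89 in pine and 5.33 in eucalyptus, while Mt2 was above 0 in all 4 fuels.

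At 24 h, other mice given red oak flame smoke were compared with mice given red oak smolder smoke, in a fit of 24 lungs with a plate term. The edgeR test called 0 of 13222 genes (0%) and 1628 had an unadjusted p under 0.05 (12.3%), 1552 higher (11.7%) and 76 lower (0.575%). The count moved with single flame lungs, to 561 without flame replicate 2 and 377 without flame replicate 4, and DESeq2 called 268. Mt2 had 33.2 ± 20.5 CPM in flame and 23.4 ± 9.08 CPM in smolder lungs at 24 h (SD, n = 6 each), a log2 difference of 0.47 ± 0.35. The 24 h levels of Mt2 were 13.9 to 71.2 CPM in flame lungs and 8.87 to 31.8 CPM in smolder lungs. Its difference without the highest flame lung was not taken. The genes with the smallest p were Sfmbt2, Ap5s1, Dbp, Lrrc4b and Dmwd above 0, and Plcxd3, Ubfd1, Lrrc17, Vps35 and Fam57a below 0. Flame replicate 6 was the highest 24 h flame lung for all 5 of the higher genes. Sfmbt2 had 754 CPM in it and at most 28.5 CPM in the other flame lungs, and Dbp 2087 and at most 541 CPM. The log2 difference of Dbp was 2.99 ± 0.73 with that lung and 1.78 ± 0.51 without it, and that of Sfmbt2 3.93 ± 0.91 and 1.03 ± 0.38. Ap5s1, Lrrc4b and Dmwd had 2.38, 3.41 and 5.27 with it and 0.81, 1.39 and 1.03 without it. The edgeR adjusted p of each of these 5 genes was 0.136 with that lung and 0.999 without it. The 4 h minus 24 h contrast called 0 genes, with 1212 at an unadjusted p under 0.05 (9.17%) and 0 by DESeq2. Upk3b and Lrrn4, both mesothelial genes, and C1rb, Gata6 and Paqr8 had its smallest p above 0. At 4 h, flame replicate 1 had 311.7 CPM of Upk3b and 130.5 CPM of Lrrn4, and the other flame lungs at most 67.2 and 25.3 CPM. That lung was also the highest 4 h flame lung for C1rb and Gata6, and the lowest for Paqr8. The time contrasts of these higher genes without it were not taken. Pld6, Setd4, Rasgef1b, Col4a4 and Kcng4 had the smallest p below 0 in the time contrast. These lower genes were all highest in 24 h flame replicate 6, and their contrasts of -6.61 to -1.89 were -2.64 to -1.07 without it. Of the 40 genes called at 4 h, 16 had the same sign at 24 h, and the same share over all genes was not taken. The count of 16, and the split into 1552 higher and 76 lower genes, were not taken without 24 h flame replicate 6.

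In hearts at 24 h, 875 of 10590 genes passed between red oak flame and red oak smolder (8.26%, edgeR), 301 higher (2.84%) and 574 lower (5.42%). The count was 334, 256, 426 and 1530 without smolder replicate 1, 2, 3 or 6, and 488, 504 and 538 without flame replicate 2, 4 or 6. Cygb, a globin of fibroblasts, Axl, a receptor tyrosine kinase, and Pcsk6, a proprotein convertase, rose by 0.93 ± 0.11, 1.08 ± 0.16 and 1.06 ± 0.13 on the log2 scale in flame hearts, as did Adgrg1 and Hlx. The ribosomal protein genes Rpl9 and Rps3 fell by 1.07 ± 0.14 and 0.83 ± 0.12, and Usmg5 and Zdhhc20 also fell. Of the 40 genes called in the 4 h lungs, Cdc42ep4 rose (0.83) and Eif2s1 fell (by 0.46) in flame hearts. Mt2 was at -0.42 ± 0.40 in hearts and was not called.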

How the data were processed

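The authors deposited a table of raw read counts per probe, with 30146 probe rows for 21450 gene symbols. Per the labels' protocols the assay was TempO-Seq, a targeted probe assay, and a QuantSeq library kit with single-end sequencing is named as well, so the library chemistry is stated in more than one way. Probe efficiency differs, so levels are not compared between genes. Bowtie and DESeq2 appear without versions among the tools of the submitters' processing notes, and the genome build is not given in the sources used here. Probe counts were summed per symbol. Genes were kept by filterByExpr (minimum count 10) and tested with edgeR 4.0.16 quasi-likelihood tests, TMM factors and Benjamini-Hochberg adjustment over all genes tested, in R 4.3.3, with a threshold of 0.05. SE is the log2 difference over the root of F. CPM used TMM factors of all 70 lungs at 4 h. DESeq2 1.42.0 and limma 3.58.1 were alternatives, and 500 DESeq2 adjusted p values were NA and stayed so. All 12 libraries were on plate 1. In each of 30 within-group pairs at least 15220 genes differed in count, so no library was counted as a copy. The planned fit of the 12 libraries made no calls, and the calls of the 48-library fit, which was planned for values per fuel, were added as an alternative after the data were seen. Genes were named by rule: the 6 smallest p per direction, fixed genes, the 5 smallest p per direction in other contrasts, list members, and the 48-library calls, while the mesothelial and platelet genes, Mcm3, Apln and others among the lists were chosen after their values were seen. The members and lists were chosen with earlier results of these data known. A gene that the rule names in hearts is not reported here. P values set a difference against the spread between animals, which in the 48-library fit was pooled over lungs of all 4 fuels. The tests were tried on a single simulated data set per design, drawn with the spread per gene that edgeR estimated. There DESeq2 made a larger share of false calls than edgeR. In the 12 libraries 29 of 164 DESeq2 calls and 7 of 125 edgeR calls were false. In the 48 libraries the counts were 16 of 163 and 4 of 143. The DESeq2 share was above the threshold of 0.05 in both, and the edgeR share slightly above it in the 12 libraries. Of genes changed 1.5-fold and 2-fold, edgeR recovered 5 of 50 and 23 of 50 in the 12 libraries. The simulation held no outlying lungs and no shared shifts of tissue, so these shares need not hold in the real libraries.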

Additional observations from a re-analysis of the deposited data

Results flagged for a closer look

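Outliers were sought in groups of 6 values (levels of the named and called genes, and library measures), with the gap of the extreme lung to its neighbour over the range above 0.625. Chance flags about 1 in 20 such groups, and 16 (12.9%) had such a gap. Flame replicate 1 was the extreme lung for 9 genes. It was highest for C1rb (254 CPM, next 121.997 CPM), Bnc2 (185, next 60), Bicc1 (66.6, next 36.8), Rspo1 (24.8, next 6.51), C4b (281, next 76.3) and Cul2 (47.3, next 31). It was lowest for Cish (18.4 CPM), Tor1aip1 (86 CPM) and Furin (149 CPM), and its share of mitochondrially encoded counts was the highest of the flame lungs (0.199%). Flame replicate 6 was lowest for Zup1 (84.7 CPM), and flame replicate 2 had the most detected genes (15644).

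Smolder replicate 4 was highest for Txlng (40.4 CPM), Armc2 (45.2 CPM) and Ilf2 (466 CPM), and smolder replicate 3 for Gprc5a (110 CPM, next 70.8). Cyp1a1 had a red oak phase difference that differed from the mean of peat, pine and eucalyptus by -3.33 on the log2 scale (edgeR adjusted p = 0.000788).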

How the results depend on the processing

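No paired analysis was possible because replicate numbers follow accession order and each animal is in 1 treatment. For red oak flame against smolder in 4 h lungs, edgeR called 0 genes in every fit that left out 1 library (0 to 0) and DESeq2 called 90. The fit of all lungs, with a plate term, called 1, the fits of 70 and of 48 lungs called 40 each, and the fit without smolder replicates 1 and 4 called 1 (Lbp, 1.68). For the 48-library count of 40, DESeq2 gave 198, no filter 10, no pine 15, leaving out 1 library 4 to 67, and leaving out smolder replicates 1 and 4 together 0. The contrast with other fuels gave 5 by DESeq2, 2 with each probe alone, and 1 in all left-out fits (1 to 1). The time contrast gave 320 in the fit of all lungs. The 24 h count gave 268 by DESeq2, 985 in the fit of all lungs, and 0 to 561 with 1 lung left out. The heart count gave 1357 by DESeq2 and 256 to 1530 with 1 heart left out. Of 525 values of 25 named genes, 481 kept direction and side of the threshold, 30 passed it, and 14 reversed in sign while not called: Fos (0.47 with detected genes as covariate, 0.030 in limma-voom, 0.35 without smolder replicates 1 and 4, and -0.23 to 0.072 with 1 library left out), Cxcl1 (-0.13 with the covariate), Cyp1b1 (-0.12 to 0.38 with 1 left out), Hmox1 (-0.092 to 0.37) and Mt1 (-0.10 to 0.39). The cause was not tested. Depth limits low genes such as Arntl, at 0.54 to 10.3 CPM.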
